A study of Mus musculus with 12 samples.

Results

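The response of macrophages to interleukin-4 (IL-4) was compared between wild-type (WT) and IGF2BP2 knockout (KO) cells as a difference of differences. For each gene, the log2 fold change of IL-4-treated (M2) against untreated (M0) macrophages in WT was subtracted from the same change in KO, so that a positive value stands for a more positive response in KO. All 12 of the 12 libraries of the series entered, in 4 groups of 3 (WT M0, WT M2, KO M0 and KO M2), and untreated and treated libraries with the same number were taken as 1 of 6 mice.

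IGF2BP2 is an RNA-binding protein that attaches to selected transcripts and alters their stability, location and translation. IL-4 binds its receptor on macrophages, JAK kinases phosphorylate the transcription factor STAT6, and STAT6 switches on the genes of alternative (M2) activation while many inflammatory genes are switched off. How far a gene moves therefore depends on where it stands before the cytokine is added as well as on where it arrives.

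The cells were bone marrow-derived macrophages (BMMs) grown for 6 days with M-CSF from mice that were 3 to 4 months old per the study's methods. KO mice carried loxP sites around exons 4 and 5 of Igf2bp2 and a Cre recombinase inserted into the myeloid gene Lyz2 (alleles Igf2bp2tm1.1Thor and Lyz2tm1(cre)Ifo), and WT mice were littermates without floxed alleles, with or without Cre. M2 cells received 20 ng/ml IL-4 for 8 h and M0 cells received none, with M-CSF present in all 4 groups. Poly(A)-selected RNA was sequenced, and the total counts per library were 20011792 to 29832430 in WT and 26568719 to 39632770 in KO.

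Igf2bp2 itself (chromosome 16, 22059009 to 22163299, GRCm38) was counted over the whole gene, without a separate value for exons 4 and 5, so its count does not check the deletion. It stood at 118, 99.7 and 76.5 CPM (library counts scaled to a common total) in the 3 WT M0 libraries, 221, 233 and 178 in WT M2, 95.9, 84.9 and 91.6 in KO M0 and 146, 129 and 129 in KO M2. The genotypes overlapped in M0 and were apart in M2, with a KO against WT change of -0.11 in M0 (edgeR adjusted p = 0.656) and -0.65 in M2 (edgeR adjusted p = 0.0285) on the log2 scale. IL-4 raised the whole-gene count by 1.11 in WT and 0.57 in KO, a difference of -0.55 (SE 0.09, edgeR adjusted p = 0.00749), a call that was lost without the mouse block (edgeR adjusted p = 0.155) and without WT replicate 2. Lyz2, the lysozyme gene that carries the Cre insertion, was at 4185 to 10540 CPM in the WT libraries and at 11.0 to 33.2 CPM in the KO libraries, so the loss of Lyz2 and the loss of IGF2BP2 cannot be told apart in any value below.

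The 8 macrophage markers were all present and summed to 5321 to 6342 CPM over the 12 libraries. T and NK cell markers summed to at most 0.136 CPM, with 4 of 6 at 0 in every library. The 8 stromal markers, mainly Col1a1 and Col1a2, summed to 31.5 to 62.0 CPM in WT and 8.52 to 31.9 CPM in KO. The 8 neutrophil markers, mainly Csf3r, summed to 12.3 to 59.7 CPM, but Ly6g was at 0 in every library and Mpo and Elane at most at 0.1035 CPM. The 5 endothelial markers, mainly Pecam1, summed to 10.4 to 54.9 CPM, with Tek and Emcn at most at 0.07789 CPM. The 4 eosinophil markers, mainly Ccr3, summed to 9.503 to 17.17 CPM in WT M0 and 17.74 to 39.25 in WT M2. In KO they summed to 8.647 to 12.75 CPM in M0 and 13.4 to 18.15 in M2, and Epx was at 0 throughout. The part of such cells in the results was not tested. In bulk RNA, fewer cells of a type and less RNA per cell cannot be told apart.

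Transcript length moved with the libraries. Relative to the mean over all libraries, the longest of 5 equal groups of genes by transcript length had a median deviation of -0.18 on the log2 scale in the M2 library of KO replicate 1 and the shortest group one of 0.15, while the other 5 M2 libraries lay between -0.03 and 0.04 for both. Among M0 libraries, WT replicate 1 was at 0.11 for the longest and -0.09 for the shortest group, WT replicate 3 at -0.09 and 0.08, and the other 4 between -0.04 and 0.05. The median difference between the responses went from 0.09 in the shortest group (104 to 1314 nucleotides) to -0.12 in the longest (over 3953 nucleotides). In the shortest group 70 genes were called more positive and 10 more negative in KO, and in the longest group 40 and 295. Counts of called genes are therefore also given without KO replicate 1 and with length offsets in the model.

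**Figure D1:**
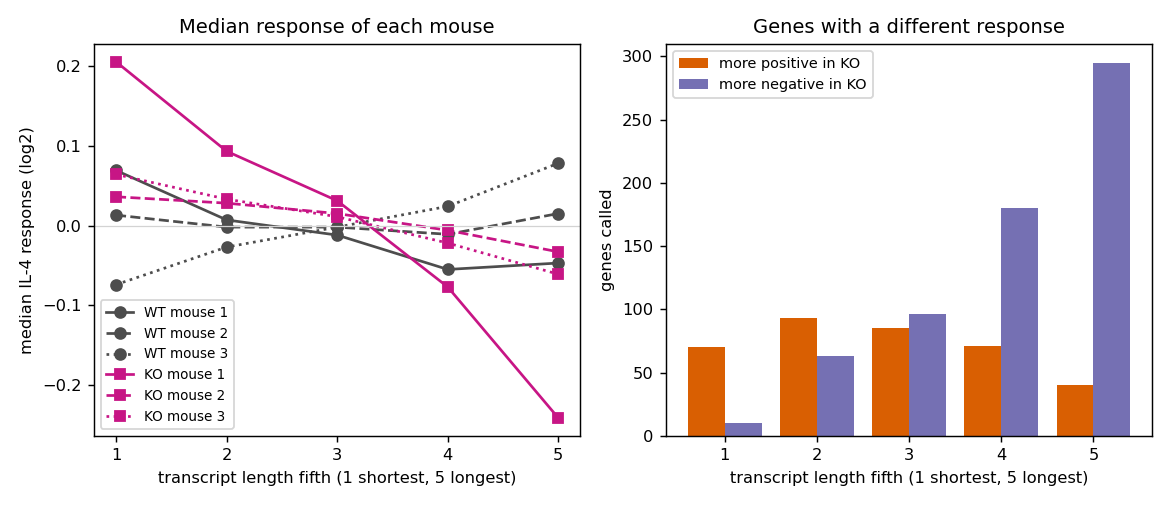
Left, median IL-4 response (log2 fold change of M2 against M0) of each mouse over genes in 5 equal groups by transcript length, with circles for WT and squares for KO mice. Right, number of genes called more positive or more negative in KO in each group; KO mouse 1 runs from 0.21 in the shortest group to -0.24 in the longest, and the other 5 mice stay between -0.07 and 0.08.

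Of 12846 genes tested, 1003 (7.81%) responded differently in KO and WT by edgeR's quasi-likelihood test with the mouse as a block (adjusted p below 0.05, Benjamini-Hochberg). The change was more positive in KO for 359 genes (2.79%) and more negative for 644 (5.01%). IL-4 by itself called 7016 genes (54.6%) in WT, with 27.3% of genes higher and 27.3% lower, and 7472 (58.2%) in KO, with 29.4% higher and 28.8% lower. Both responses were called with opposite signs in 78 genes (0.607%), of which 77 also passed the test of the difference. The quartiles of the size of the called differences were 0.33, 0.42 and 0.59 on the log2 scale, and 59 genes exceeded 1. The median over all genes tested was 0.01.

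The number of calls rested on the mice and on the block. It was 892 without KO replicate 1 and 1476 with length offsets, but 215 without WT replicate 2, 315 without KO replicate 3 and 568 without KO replicate 2. Without the mouse block 416 genes were called, all of them among the 1003. The share called more positive in KO was 35.8% here, 24.9% with DESeq2 and 45.2% with limma on log2(TPM + 1).

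The responses of the 3 KO mice did not overlap those of the 3 WT mice in 1000 of the 1003 genes. Over all genes tested, the 3 KO responses lay above the 3 WT responses in 14.8% of genes and below them in 16.1%. The last gene inside the threshold, 6330403L08Rik, had an adjusted p of 0.04999 and a difference of 0.44, and the first outside it, Tmem132a, had 0.05013 and 0.47.

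Sorted by the direction of the response, the called genes fell into 6 classes. IL-4 repressed 364 genes more strongly in KO and induced 232 less, induced 169 more and repressed 161 less, and it moved 48 genes down in KO but up in WT and 29 genes up in KO but down in WT. Without KO replicate 1 these classes held 299, 220, 147, 156, 44 and 26 genes, and with length offsets 414, 364, 321, 262, 69 and 46. Median responses in WT and KO were -0.25 and -0.70 for genes repressed more, 0.73 and 0.30 for genes induced less, 0.24 and 0.64 for genes induced more, and -0.83 and -0.25 for genes repressed less. Of the genes induced more, 69 passed the test for a response in KO and not in WT, and of the genes repressed less, 62 passed it in WT and not in KO.

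**Figure D2:**
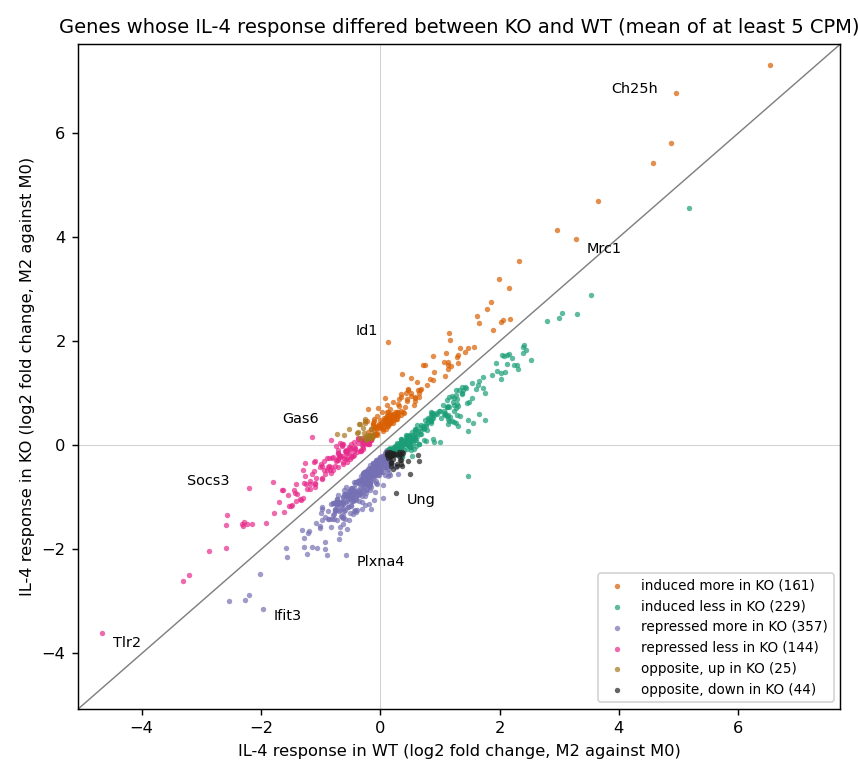
IL-4 response in WT (x axis) and KO (y axis), as log2 fold changes of M2 against M0, of the 960 called genes that averaged 5 CPM or more, coloured by class. The line marks equal responses; Id1 and Ch25h lie far above it and Ung, Plxna4 and Ifit3 below it.

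The classes also differed in where the genotypes stood. In M0 alone 1256 genes (9.78%) differed between KO and WT, with 5.5% of genes higher and 4.27% lower in KO, and in M2 alone 344 (2.68%), with 1.21% higher and 1.46% lower. Among genes induced more in KO, 163 of 169 were lower in KO than in WT before IL-4 and 140 were higher after it. Among genes induced less, 226 of 232 were higher in KO before IL-4 and 178 were lower after it. The larger of the 2 gaps between the genotypes was the one in M0 for 176 of the 232 genes induced less, 115 of the 169 induced more and 108 of the 161 repressed less, whereas it was the one in M2 for 209 of the 364 genes repressed more. These counts describe the fitted values, since the difference between the responses is itself the change of that gap.

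**Figure D3:**
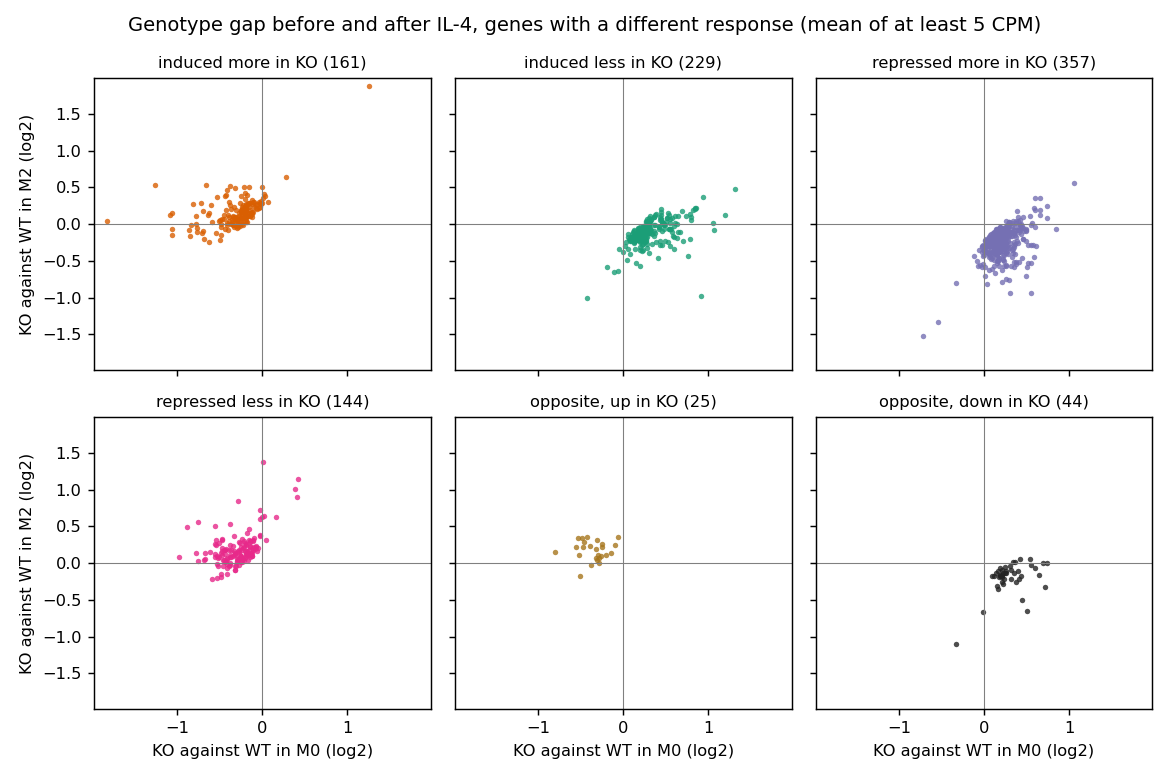
KO against WT log2 fold change in M0 (x axis) and in M2 (y axis) of the same 960 called genes, 1 panel per class. Genes with a more positive response in KO lie mostly left of 0 in M0 and above 0 in M2, and genes with a more negative response mostly right of 0 and below it.

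Genes that moved in opposite directions included a ligand, a transcription factor and a DNA repair enzyme. Gas6 (chromosome 8, 13465374 to 13494490), the ligand of the TAM receptors through which macrophages recognise apoptotic cells, was at 181, 196 and 197 CPM in WT M0 and 119, 111 and 116 in WT M2, but at 102, 108 and 121 in KO M0 and 131, 120 and 133 in KO M2. Every WT mouse lost Gas6 transcript with IL-4 and every KO mouse gained it. The responses were -0.73 and 0.22, a difference of 0.95 (SE 0.08, edgeR adjusted p = 0.00072), which was called in all 6 fits that left out 1 mouse. Cebpb (chromosome 2, 167688915 to 167690418), a transcription factor of macrophage activation, was at 125, 140 and 179 CPM in WT M0, 93.2, 89.9 and 105 in WT M2, 113, 109 and 96.5 in KO M0 and 129, 118 and 119 in KO M2. It too fell in each WT mouse and was higher after IL-4 in each KO mouse, with a difference of 0.81 (SE 0.09, edgeR adjusted p = 0.00193). Tmem37, which encodes a calcium channel subunit-like membrane protein, had responses of -0.36 and 0.42 (difference 0.77, SE 0.16, edgeR adjusted p = 0.0206), lost with DESeq2, with limma and without WT replicate 1, WT replicate 2 or KO replicate 3.

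In the other direction, Ung (chromosome 5, 114130386 to 114139323), the uracil-DNA glycosylase that removes uracil from DNA, was at 17.6, 14.1 and 11.7 CPM in WT M0, 19.1, 16.8 and 15.8 in WT M2, 21.8, 19.1 and 21.1 in KO M0 and 13.3, 9.83 and 10.0 in KO M2. KO started above all WT M0 libraries and ended below all WT M2 libraries. Its responses were 0.26 in WT and -0.92 in KO, a difference of -1.18 (SE 0.12, edgeR adjusted p = 0.00154). Snx30, a sorting nexin of endosomes, was at 65.4, 63.5 and 59.4 CPM in WT M0 and 102, 97.2 and 91.5 in WT M2, against 95.5, 100 and 98.7 in KO M0 and 75.1, 93.1 and 91.3 in KO M2. The KO libraries thus began near the level that WT reached with IL-4, and the difference was -0.81 (SE 0.07, edgeR adjusted p = 0.000978), although Snx30 overlaps Gm12543 on the same strand and its counts were fractional in all 12 libraries. Cacna1d, a voltage-gated calcium channel subunit, and the zinc finger gene Prdm10 had differences of -0.96 (SE 0.15, edgeR adjusted p = 0.00656) and -1.05 (SE 0.23, edgeR adjusted p = 0.0232), both lost with limma and Prdm10 also without WT replicate 1, WT replicate 3 or KO replicate 3. The processed pseudogene Gm15427, at 0.84 (SE 0.15, edgeR adjusted p = 0.00979), shared reads with other genes in all 12 libraries and is uncertain.

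**Figure D4:**
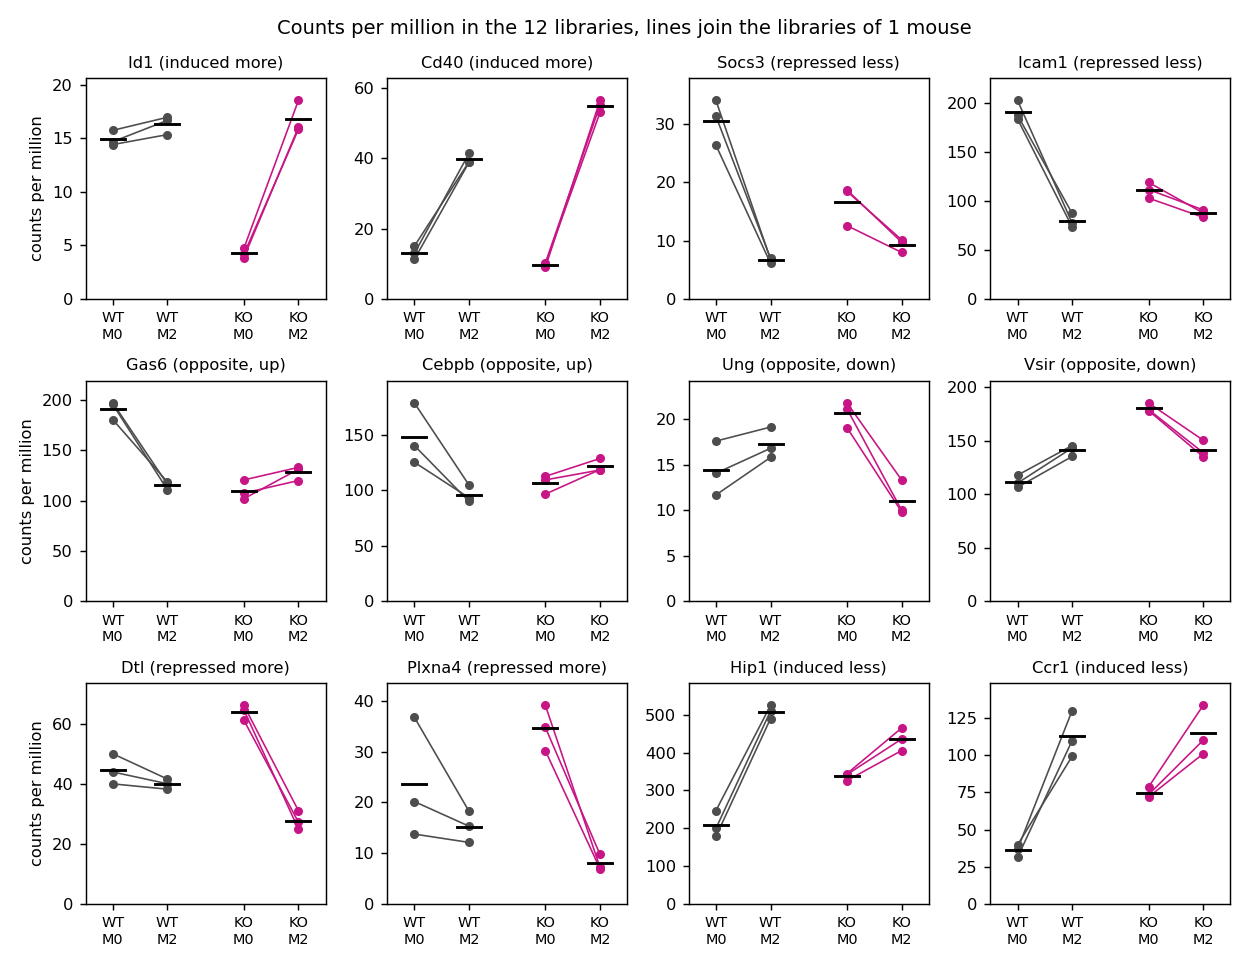
CPM of 12 genes, 2 from each class, in the 12 libraries; each line joins the M0 and M2 libraries of 1 mouse (grey WT, magenta KO) and black bars are group means. Gas6 and Cebpb fall in WT and rise in KO, Ung and Vsir do the reverse, and Id1 is near 15 CPM in WT M0 and near 4 CPM in KO M0 but about equal in M2.

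The largest increase in response among genes of at least 5 CPM was that of Id1 (chromosome 2, 152736251 to 152737410), an inhibitor of DNA binding that BMP signals induce through SMAD proteins. Its CPM values were 14.7, 15.7 and 14.4 in WT M0, 16.7, 17.0 and 15.3 in WT M2, 4.70, 3.85 and 4.15 in KO M0 and 18.5, 16.0 and 15.8 in KO M2. Id1 was nearly flat in WT and about 4 times higher with IL-4 in KO, where it ended inside or just above the WT range. The responses were 0.13 and 1.99 (difference 1.86, SE 0.09, edgeR adjusted p = 6.08e-05), and the difference was called under all 16 alternatives, at 1.73 to 1.92.

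Its relatives Id3 and Id2 were also lower in KO M0 than in WT M0. Id3 was at 10.8, 12.6 and 10.4 CPM in WT M0, 1.45, 1.29 and 1.89 in WT M2, 3.09, 2.33 and 2.32 in KO M0 and 1.28, 0.957 and 1.02 in KO M2, so that it fell in both genotypes but from a lower level in KO (difference 1.62, SE 0.24, edgeR adjusted p = 0.00542). Id2 was at 90.5, 88.2 and 79.8 CPM in WT M0, 174, 160 and 150 in WT M2, 64.8, 60.2 and 64.7 in KO M0 and 175, 162 and 171 in KO M2. IL-4 induced it in both, by 0.90 in WT and 1.42 in KO (difference 0.52, SE 0.05, edgeR adjusted p = 0.00152). Smad6, the feedback inhibitor of BMP signalling, and Skil, a repressor of SMAD proteins, were also repressed less in KO, with differences of 1.39 (SE 0.33, edgeR adjusted p = 0.0317) and 0.38 (SE 0.08, edgeR adjusted p = 0.0200). Of 30 tested genes of the BMP, TGF-beta, SMAD and ID list, these 5 were called and each was more positive in KO (2.79% of all genes). None was called more negative by edgeR, where 6 had an unadjusted p below 0.05, and DESeq2 and the fits without WT replicate 1 and without WT replicate 3 each called 1. The median of the list, -0.02, lay near that of all genes and changed sign with length offsets (0.07), and 5 were called more positive without KO replicate 1, while length offsets gave 6 more positive and 1 more negative. The positive count was 3 without WT replicate 2, KO replicate 2 or KO replicate 3, and Smad6 and Skil were each lost under 6 of 16 alternatives, no block among them.

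In the IL-4 receptor, JAK and STAT6 list, 3 of 16 tested genes were called, 2 more positive and 1 more negative in KO (2.79% and 5.01% of all genes). These counts were 1 and 1 without KO replicate 1, WT replicate 1 or KO replicate 2, 1 and 0 without WT replicate 2 or KO replicate 3, and 3 and 2 with length offsets. Socs3 (chromosome 11, 117966079 to 117970047), a STAT-induced inhibitor of cytokine receptor signalling, was at 26.4, 34.0 and 31.3 CPM in WT M0, 6.09, 6.75 and 6.95 in WT M2, 18.4, 18.7 and 12.6 in KO M0 and 10.1, 9.73 and 7.97 in KO M2. The KO libraries lay below all WT libraries before IL-4 and above all of them after it. Socs3 was repressed by 2.21 in WT and 0.83 in KO (difference 1.38, SE 0.11, edgeR adjusted p = 0.00072), a call that held under all 16 alternatives. The kinase Jak2 was induced slightly more in KO (0.28, SE 0.07, edgeR adjusted p = 0.0488) and Stat6 was repressed slightly more (-0.23, SE 0.06, edgeR adjusted p = 0.0357). Both lay near the threshold, and Jak2 was lost under 11 of 16 alternatives and Stat6 under 7. Il4ra, the receptor chain that binds the cytokine, had responses of 0.38 in WT and 0.53 in KO and was not called (edgeR adjusted p = 0.262). The median difference of the list was -0.01.

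The proximal promoter of Socs3 holds 1 match to TTCNNNGAA, the letters that STAT factors bind, searched on both strands. It is shown because Socs3 gave the clearest difference in this pathway. Promoter windows ran from 250 bases before to 50 after the start site in RefSeq (GRCm38.p6) and existed for 9615 tested genes, of which 8.26% held a match. The share was 7.75% among genes repressed less in KO, the class of Socs3, and 14.2% among genes induced more, 9.73% among genes induced less, 6.83% among genes repressed more, 8.57% among genes opposite and down in KO and 5% among genes opposite and up. The same letters with 1 more base between the half-sites, the spacing that STAT6 prefers, were found in 6.74% of windows and in 0 of the 15 windows of this list, Socs3 included. The motif is in capitals in the 30 bases at chr11:117969501-117969530 on the minus strand.
Socs3: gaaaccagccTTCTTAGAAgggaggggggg

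Genes of alternative activation responded strongly in both genotypes: 29 of the 30 tested were called higher by IL-4 in WT and 29 in KO (27.3% and 29.4% of all genes), with median responses of 3.69 and 4.13. Of these, 6 were called more positive in KO and 1 more negative (2.79% and 5.01% of all genes), with a median difference of 0.25 against 0.01 over all genes, and 5 and 2 were called without KO replicate 1 and 6 and 2 with length offsets. Without WT replicate 2 the positive count was 2, and without the block 1. Mrc1, the mannose receptor CD206, was at 214, 286 and 287 CPM in WT M0, 2380, 2626 and 2589 in WT M2, 131, 148 and 155 in KO M0 and 2100, 2351 and 2324 in KO M2. The KO libraries were below all WT libraries in M0 and each also below its WT range in M2, and the fold change was therefore larger in KO without a higher end level (3.28 and 3.97, difference 0.68, SE 0.08, edgeR adjusted p = 0.00280). Chil3, the secreted chitinase-like protein Ym1, was at 3.95, 3.48 and 1.44 CPM in WT M0, 29.1, 26.2 and 13.6 in WT M2, 1.36, 1.51 and 1.36 in KO M0 and 22.9, 23.2 and 29.2 in KO M2. WT replicate 3 was low in both conditions, and the difference was 1.19 (SE 0.16, edgeR adjusted p = 0.00421) but was not called without the block, at an adjusted p of 0.199.

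Ch25h, which makes 25-hydroxycholesterol, had the second largest increase in response among called genes of at least 5 CPM. It was at 0.323, 0.591 and 1.09 CPM in WT M0, 14.6, 18.9 and 27.9 in WT M2, 0.331, 0.212 and 0.277 in KO M0 and 26.6, 30.8 and 30.7 in KO M2. The genotypes overlapped in both conditions, with WT replicate 3 highest of WT in each, and the difference was 1.81 (SE 0.30, edgeR adjusted p = 0.00829), lost without WT replicate 2 and without the block. Clec10a, a lectin of M2 cells, had 7.57, 11.4 and 16.8 CPM in WT M0, 226, 263 and 347 in WT M2, 6.58, 7.93 and 8.66 in KO M0 and 345, 330 and 328 in KO M2, with a difference of 0.84 (SE 0.15, edgeR adjusted p = 0.0100), lost under the same 2 alternatives. The arginine transporter Slc7a2 (0.78, SE 0.16, edgeR adjusted p = 0.0215) and Myc (0.28, SE 0.06, edgeR adjusted p = 0.0284) were also induced more in KO, each lost under 8 of 16 alternatives. Cd300ld was induced less (-0.49, SE 0.09, edgeR adjusted p = 0.0129), a call lost without the block and without KO replicate 3. Counts of Clec10a and Cd300ld were fractional in all 12 libraries, so their reads may be shared with related genes.

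Retnla, which encodes the secreted protein RELM-alpha and is a widely used marker of the M2 state, did not pass the test. It was at 67.5, 88.3 and 152 CPM in WT M2 and 120, 96.5 and 108 in KO M2 and at or near 0 in M0, and its difference of 0.30 had an SE of 1.01 (edgeR adjusted p = 0.890).

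Inflammatory genes of the NF-kB pathway were the list with the most calls in 1 direction. Of 31 tested, 17 were called and all 17 were more positive in KO (2.79% of all genes), with a median difference of 0.41. None was called more negative by edgeR or DESeq2, and 1 had an unadjusted edgeR p below 0.05. IL-4 lowered 22 of the 31 in WT and 20 in KO (27.3% and 28.8% of all genes), with medians of -1.03 and -0.65. Before IL-4, 17 of the 31 were called lower in KO than in WT (4.27% of all genes), and after it 5 were called higher (1.21% of all genes). Without KO replicate 1, 16 were called and with length offsets 17, while leaving out other mice gave 11 to 17, the lowest without WT replicate 2. Without WT replicate 3, 3 members were called more negative.

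Icam1 (chromosome 9, 21015985 to 21028817), the adhesion molecule that binds leukocyte integrins, was at 188, 203 and 184 CPM in WT M0, 87.4, 77.6 and 73.5 in WT M2, 119, 112 and 103 in KO M0 and 87.8, 91.0 and 83.4 in KO M2. The genotypes were far apart before IL-4 and overlapped after it. Its responses were -1.27 and -0.35 (difference 0.92, SE 0.08, edgeR adjusted p = 0.000782). Tlr2, a receptor for bacterial lipoproteins, was at 177, 218 and 219 CPM in WT M0, 8.00, 6.86 and 9.20 in WT M2, 103, 109 and 97.6 in KO M0 and 7.31, 9.42 and 8.67 in KO M2. This was again a lower start and a shared end, with a difference of 1.07 (SE 0.14, edgeR adjusted p = 0.00372). Traf1, an adaptor of TNF receptors, went from 41.2, 48.8 and 48.6 CPM to 6.59, 8.35 and 8.23 in WT, and from 33.5, 31.3 and 29.7 to 10.4, 12.1 and 10.2 in KO. Here the order of the genotypes turned over, without overlap in either condition (difference 1.06, SE 0.10, edgeR adjusted p = 0.00122).

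Some subunits of the pathway and some of its inhibitors were called, each more positive in KO. The subunits Nfkb2 (0.79, SE 0.07, edgeR adjusted p = 0.00072), Relb (0.68, SE 0.10, edgeR adjusted p = 0.00564) and Nfkb1 (0.41, SE 0.07, edgeR adjusted p = 0.00897) were called, while Rela and Rel, at 0.11 and -0.28, were not. Among inhibitors, Tnip1 (0.79), Nfkbie (0.62), Nfkbia (0.52), Nfkbib (0.49) and Tnfaip3 (0.45) were called, while the related gene Nfkbiz (0.25, SE 0.23, edgeR adjusted p = 0.538) was not. Nfkb1 and Nfkbie were lost with both limma fits and without WT replicate 2, Tnfaip3 without WT replicate 2 and Nfkbib without KO replicate 3. Of these called subunits and inhibitors, Nfkb1 and Tnfaip3 had positive responses in both genotypes and the others negative ones. Cd40, the co-stimulatory receptor, was induced rather than repressed: it went from 11.2, 12.9 and 15.0 to 38.8, 41.4 and 39.0 CPM in WT, and from 8.96, 9.87 and 10.2 to 56.5, 53.0 and 55.1 in KO. KO cells were below WT before IL-4 and above WT after it, and the difference was 0.88 (SE 0.12, edgeR adjusted p = 0.00380). Tnf and Ptgs2, the cytokine and the prostaglandin synthase, had differences of 0.81 (SE 0.12, edgeR adjusted p = 0.00589) and 0.85 (SE 0.15, edgeR adjusted p = 0.0110). Ptgs2 was lost with both limma fits and without KO replicate 3. Several cytokine genes of the list were not called, among them Il1b at 0.28 (SE 0.39) and Cxcl10 at -0.96 (SE 0.64).

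Matches to the NF-kB consensus stood in the promoter windows of 12 of the 24 list members that have one, against 6.17% of all tested genes with a window. They are printed for 4 called members and for Cxcl3, a called chemokine, with the motif in capitals. The windows, all of GRCm38.p6, were chr12:55492657-55492686 on the minus strand for Nfkbia, chr19:46304688-46304717 on the plus strand for Nfkb2, chr3:83841762-83841791 on the minus strand for Tlr2, chr11:54962979-54963008 on the minus strand for Tnip1 and chr5:90786018-90786047 on the plus strand for Cxcl3.
Nfkbia: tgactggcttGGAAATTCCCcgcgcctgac
Nfkb2: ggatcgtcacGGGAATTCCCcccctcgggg
Tlr2: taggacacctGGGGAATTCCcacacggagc
Tnip1: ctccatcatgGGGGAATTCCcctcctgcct
Cxcl3: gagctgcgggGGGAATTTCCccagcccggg
By class, the consensus was found in 13.2% of genes repressed less in KO, 9.7% of genes induced more, 6.83% of genes repressed more and 5.41% of genes induced less, and in 15% of genes opposite and up in KO and 11.4% of genes opposite and down. A match is a description of letters and was not tested as a binding site.

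Interferon-stimulated genes went the other way. Of 31 tested, 13 were called more negative in KO and 1, Irf1, more positive (5.01% and 2.79% of all genes), with a median difference of -0.54, and 29 of the 31 fitted values were below 0. Before IL-4, 8 were called higher in KO and 1 lower (5.5% and 4.27% of all genes), and the median gap was 0.31 before and -0.23 after IL-4. IL-4 called 17 of the list lower in WT and 22 in KO (27.3% and 28.8% of all genes). The negative count rested on the libraries. It was 2 without WT replicate 2, 4 without KO replicate 3, 8 without KO replicate 1 or WT replicate 1, 5 without the block, 3 with limma and 15 with length offsets.

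Rtp4, an interferon-induced chaperone, was at 21.5, 20.1 and 23.0 CPM in WT M0, 13.7, 11.7 and 8.54 in WT M2, 36.8, 26.5 and 31.6 in KO M0 and 9.00, 7.25 and 7.46 in KO M2. KO was above WT in M0 without overlap, and overlapped the lowest WT library in M2. The responses were -0.93 and -1.99 (difference -1.06, SE 0.18, edgeR adjusted p = 0.00813). Oasl2, of the oligoadenylate synthetase family, was at 46.7, 40.1 and 42.7 CPM in WT M0, 38.5, 29.5 and 27.7 in WT M2, 72.3, 58.2 and 59.0 in KO M0 and 27.0, 26.2 and 25.3 in KO M2. It was higher in KO before IL-4 and lower after it, with no overlap either time (difference -0.82, SE 0.10, edgeR adjusted p = 0.00359), and was called in all 6 fits without 1 mouse but lost with limma. Ifit3 was at 8.31, 8.84 and 6.74 CPM in WT M0, 3.14, 1.65 and 1.33 in WT M2, 14.6, 7.24 and 7.94 in KO M0 and 1.51, 0.750 and 1.05 in KO M2. Its difference of -1.18 (SE 0.28, edgeR adjusted p = 0.0358) was lost under 8 of 16 alternatives, 5 of them fits without 1 mouse, KO replicate 1 had the highest M0 value while the other KO M0 libraries lay within or near the WT range, and counts were fractional in 11 libraries. The same library was the highest of KO M0 for Cmpk2, Ifit2, Isg15 and Rtp4.

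Some factors that drive these genes were among the called ones. Stat2 (-0.38, SE 0.07, edgeR adjusted p = 0.0131) and Irf9 (-0.34, SE 0.07, edgeR adjusted p = 0.0140), both subunits of the interferon-activated complex ISGF3, were each more negative in KO. Both were lost with limma and without WT replicate 2 or KO replicate 3, and the factor Irf7, at -0.51 (edgeR adjusted p = 0.0978), was not called. Stat2 was at 50.1, 48.6 and 46.4 CPM in WT M0 and 55.6, 56.0 and 56.8 in WT M2, and at 60.1, 53.2 and 58.4 in KO M0 and 51.1, 50.8 and 51.3 in KO M2. It therefore went up in each WT mouse and was lower after IL-4 in each KO mouse. Irf9 overlaps Rnf31 on the same strand with fractional counts, and its value is uncertain to that extent.

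ISGF3 binds the interferon-stimulated response element (ISRE), a repeat of GAAA with a spacer of any bases between, searched on both strands. It stood in 12 of 22 list members with a promoter window, against 3.96% of all tested genes with one. By class the share was 8.63% of genes repressed more in KO, 3.78% of genes induced less, 2.99% of genes induced more, 2.33% of genes repressed less, 8.57% of genes opposite and down in KO and 5% of genes opposite and up. Windows of called members follow with the element in capitals, at chr4:156200877-156200906 on the minus strand for Isg15, chr19:34583363-34583392 on the plus strand for Ifit3, chr10:128270266-128270295 on the plus strand for Stat2 and chr5:120777715-120777744 on the minus strand for Oas3 (GRCm38.p6).
Isg15: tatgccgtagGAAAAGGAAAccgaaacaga
Ifit3: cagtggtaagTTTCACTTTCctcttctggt
Stat2: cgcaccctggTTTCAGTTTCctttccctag
Oas3: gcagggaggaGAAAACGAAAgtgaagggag

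Cholesterol genes that were called had a more negative response in KO. In the list of cholesterol synthesis and uptake, 5 of 23 tested genes were called and all 5 were more negative (5.01% of all genes), 21 of the 23 values lay below 0, and the median was -0.33. None was called more positive by edgeR or DESeq2. An unadjusted edgeR p below 0.05 was found for 1 member in the positive and 14 in the negative direction. Msmo1, a sterol demethylation enzyme, was at 103, 111 and 127 CPM in WT M0, 73.6, 74.7 and 67.1 in WT M2, 151, 139 and 140 in KO M0 and 68.9, 49.2 and 51.1 in KO M2. KO replicate 1 overlapped WT in M2 and the other KO libraries did not, and the difference was -0.71 (SE 0.13, edgeR adjusted p = 0.0111). Stard4, a cholesterol carrier, fell by 0.49 in WT and by 1.17 in KO (difference -0.68, SE 0.10, edgeR adjusted p = 0.00615). Insig1, which holds the SREBP pathway in check, was flat in WT at 0.02 and fell by 0.45 in KO (difference -0.47, SE 0.09, edgeR adjusted p = 0.0176). Mvd and Cyp51 had differences of -0.63 and -0.55, and Cyp51 was lost under 8 of 16 alternatives. Msmo1 was lost without WT replicate 2 or KO replicate 3, and Insig1 without either of these or KO replicate 2. The list count was 6 with length offsets, 7 without KO replicate 1, 12 without WT replicate 3, 3 without KO replicate 2, 2 without KO replicate 3 and 1 without WT replicate 2.

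Of 34 tested cell cycle genes, 32 were called lower by IL-4 in WT and 33 in KO (27.3% and 28.8% of all genes). The difference split the list: 7 genes were called more negative in KO and 5 more positive (5.01% and 2.79% of all genes), with a median of -0.05. These counts were 8 and 6 with length offsets, 5 and 3 without KO replicate 1, 1 and 2 without WT replicate 2 or KO replicate 3, 4 and 2 without KO replicate 2, and 6 and 9 without WT replicate 3. The first set was Cdc6, Mcm2, Mcm3, Mcm4, Mcm7 and Cdt1, which act in the licensing of replication origins, and the transcription factor E2f1. E2f1 was lost under 10 of 16 alternatives, Mcm7 under 7, Mcm4 and Cdt1 under 5 each and Mcm2 and Mcm3 under 4 each. Their helicase partners Mcm5 (-0.10, edgeR adjusted p = 0.511) and Mcm6 (-0.13, edgeR adjusted p = 0.488) were not called. Cdc6, which loads the replicative helicase, was at 44.2, 44.7 and 41.2 CPM in WT M0, 35.2, 37.7 and 32.6 in WT M2, 53.2, 53.4 and 56.9 in KO M0 and 30.5, 22.8 and 24.2 in KO M2. KO exceeded WT before IL-4 and was lower after it, with no overlap (difference -0.79, SE 0.11, edgeR adjusted p = 0.00489). The helicase subunit Mcm3 was at 200, 189 and 171 CPM in WT M0, 138, 147 and 151 in WT M2, 219, 205 and 212 in KO M0 and 128, 112 and 110 in KO M2 (difference -0.50, SE 0.09, edgeR adjusted p = 0.0107).

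The second set was Ccnb1, Ccnb2, Cdc20 and Birc5, which act in mitosis, and the thymidine kinase Tk1. Other mitotic genes of the list, Kif11, Top2a, Bub1, Bub1b and Cenpe, were not called and had values of -0.11 to -0.04, and Nusap1, Plk1, Hmmr, Aurka, Cdk1 and Aurkb were not called either and had values of 0.09 to 0.34. Ccnb2, a mitotic cyclin, was at 45.3, 68.1 and 96.0 CPM in WT M0 and 15.8, 24.0 and 40.7 in WT M2, against 44.7, 53.1 and 55.0 in KO M0 and 27.6, 31.4 and 31.9 in KO M2. WT mice differed more than 2-fold among themselves in the same order in both conditions, and the KO libraries lay within the WT range in M2 and within or just below it in M0. The difference within mice was 0.66 (SE 0.09, edgeR adjusted p = 0.00372), and without the mouse block the adjusted p was 0.454. For Cdc20, Birc5 and Ccnb1 the edgeR adjusted p without the block was 0.477, 0.610 and 0.659. Birc5 was lost under 10 of 16 alternatives, Ccnb1 under 9 and Tk1 under 7. Counts of Ccnb1 were fractional in all 12 libraries.

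The letters TTTNGCGC, to which E2F factors bind, were found on either strand in 10.1% of genes repressed more in KO that have a promoter window, against 2.87% of all tested genes with one, 4.32% of genes induced less, 2.24% of genes induced more, 3.1% of genes repressed less, 2.86% of genes opposite and down in KO and 0 of 20 genes opposite and up. Windows of 2 called licensing genes are shown with the letters in capitals, at chr1:20820263-20820292 on the minus strand for Mcm3 and chr8:122568035-122568064 on the plus strand for Cdt1 (GRCm38.p6), both just downstream of the start site, and Cdt1 overlaps Gm20388 on the same strand.
Mcm3: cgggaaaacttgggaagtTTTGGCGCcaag
Cdt1: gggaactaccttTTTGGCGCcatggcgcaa

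Growth factors made up most of the next list's calls. Of 28 tested growth factors and receptors, 7 were called more positive and 1, the receptor subunit Csf2ra, more negative (-0.22, SE 0.06, edgeR adjusted p = 0.0474), with a median of 0.16. Of all genes, 2.79% were called more positive and 5.01% more negative. The call of Csf2ra was lost under 10 of 16 alternatives, among them no block, DESeq2 and 5 of the 6 fits without 1 mouse. The counts were 6 and 1 without KO replicate 1 and 8 and 2 with length offsets. Without WT replicate 2, KO replicate 2 or KO replicate 3, 4 were called more positive. Pdgfa was at 31.7, 32.1 and 26.1 CPM in WT M0, 112, 109 and 90.6 in WT M2, 23.0, 20.3 and 23.1 in KO M0 and 142, 128 and 137 in KO M2. KO was below WT in M0 and above it in M2, without overlap (difference 0.82, SE 0.06, edgeR adjusted p = 0.00072). Pdgfb, the related ligand, was repressed less in KO, by 0.96 against 1.55 in WT (difference 0.59, SE 0.07, edgeR adjusted p = 0.00280). Its call was lost without the mouse block (edgeR adjusted p = 0.0771).

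Csf1, the macrophage growth factor M-CSF, which was also added to all cultures as protein, was at 8.99, 9.69 and 10.8 CPM in WT M0, 19.1, 22.5 and 24.2 in WT M2, 5.91, 4.09 and 4.23 in KO M0 and 21.2, 21.7 and 19.8 in KO M2. A lower start again met a shared end (difference 1.01, SE 0.14, edgeR adjusted p = 0.00425), a call lost with both limma fits. Kitl, the ligand of the receptor KIT, differed in kind. It was at 85.9, 77.4 and 75.3 CPM in WT M0, 70.1, 75.4 and 84.6 in WT M2, 192, 177 and 200 in KO M0 and 238, 304 and 305 in KO M2. Kitl was higher in KO in both conditions and IL-4 widened the gap, with responses of -0.06 and 0.57 (difference 0.62, SE 0.13, edgeR adjusted p = 0.0232), a call lost with limma and in 4 of the 6 fits without 1 mouse. Pdgfc had the largest fitted difference of the list, 1.85 (SE 0.41, edgeR adjusted p = 0.0256), at no more than 2.07 CPM in any library, and was lost with limma and in 5 of the 6 fits without 1 mouse.

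Among chemokines and their receptors 2 of 24 tested genes were called in each direction (2.79% of all genes more positive and 5.01% more negative), against 2 more positive and 3 more negative without KO replicate 1 and 2 and 4 with length offsets. Without WT replicate 3 the counts were 1 and 5, and without WT replicate 2, KO replicate 2 or KO replicate 3 they were 1 and 2. Cx3cl1, the membrane-bound chemokine fractalkine, was at 7.60, 9.07 and 8.88 CPM in WT M0, 1.68, 2.37 and 2.97 in WT M2, 3.97, 4.59 and 4.32 in KO M0 and 3.31, 3.80 and 3.04 in KO M2. It fell by 1.88 in WT and by 0.35 in KO (difference 1.53, SE 0.19, edgeR adjusted p = 0.00344). Ccr1, a receptor for inflammatory chemokines, was at 31.3, 36.7 and 39.6 CPM in WT M0, 110, 130 and 99.3 in WT M2, 78.7, 73.5 and 71.9 in KO M0 and 134, 110 and 101 in KO M2. KO cells started above all WT libraries and ended in an overlapping range (difference -1.05, SE 0.13, edgeR adjusted p = 0.00344).

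Of 39 adhesion and motility genes 5 were called more positive and 6 more negative in KO (2.79% and 5.01% of all genes). The counts were 3 and 6 without KO replicate 1, 2 and 2 without WT replicate 2 or KO replicate 3, and 5 and 7 with length offsets. Integrin chains were in both sets: Itgb3 (0.93, SE 0.21, edgeR adjusted p = 0.0283) and Itga5 (0.36, SE 0.06, edgeR adjusted p = 0.00749) were more positive, and Itgax (-0.87, SE 0.15, edgeR adjusted p = 0.0104), Itgam (-0.38, SE 0.07, edgeR adjusted p = 0.0142) and Itgb2 (-0.21, SE 0.05, edgeR adjusted p = 0.0486) were more negative. The last 3 encode chains of leukocyte beta-2 integrins, whose alpha chain gene Itgal, at 0.15 (edgeR adjusted p = 0.617), was not called. Plau, the urokinase protease, and its receptor Plaur were both more positive (0.65, SE 0.09, edgeR adjusted p = 0.00509, and 0.39, SE 0.09, edgeR adjusted p = 0.0284). The metalloproteinases Mmp9 (-0.59, SE 0.11, edgeR adjusted p = 0.0141) and Mmp12 (-0.38, SE 0.07, edgeR adjusted p = 0.0156) and the small GTPase Rhob (-0.63, SE 0.09, edgeR adjusted p = 0.00525) were more negative. Without the mouse block, Itgb3, Rhob and Mmp12 were still called among the genes just named, while Itgb3 and Plaur were lost in 5 of the 6 fits without 1 mouse and Itgb2 in 4. With limma, Itgb3, Itgax, Itgam, Itga5 and Itgb2 were lost.

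The other lists had 5 calls or fewer each, against 2.79% of all genes more positive and 5.01% more negative. Of 23 immediate early genes, Junb and Zfp36 were more positive and Klf2, Dusp1 and Klf6 more negative, and of 21 MAPK feedback genes, Dusp7 was more positive and Etv1, Dusp1, Spred1 and Etv5 more negative. Most of these calls were weak. Etv5 was lost under 14 of 16 alternatives, Klf6 under 10, Dusp1, Dusp7 and Spred1 under 8 each, Klf2 and Zfp36 under 5 each, and Junb and Etv1 under 2 each. Without KO replicate 1 the immediate early list had 1 positive and 3 negative calls and the MAPK list 1 and 1, and with length offsets 2 and 2, and 1 and 2. The negative count of the immediate early list fell to 0 in the edgeR fits without WT replicate 2, KO replicate 2 or KO replicate 3, and its positive count to 0 in that without WT replicate 2. Without the mouse block the immediate early list had 0 positive and 0 negative calls and the MAPK list 1 and 1. Of 30 genes of ATF4 and the unfolded protein response, Slc7a5 (0.90), Cebpb and Slc7a11 (0.78) were more positive and the chaperone genes Dnajb9 (-0.49) and Hspa5 (-0.34) more negative. Slc7a11 and Hspa5 were each lost under 7 of 16 alternatives, and the counts were 3 and 3 without KO replicate 1, 2 and 0 without WT replicate 2, 2 and 1 without KO replicate 2 or KO replicate 3, 3 and 1 without WT replicate 3, and 4 and 4 with length offsets. The amino acid transporter Slc7a5 was at 51.0, 61.4 and 58.7 CPM in WT M0, 47.4, 50.6 and 50.5 in WT M2, 39.7, 41.6 and 36.7 in KO M0 and 51.7, 72.0 and 67.6 in KO M2 (SE 0.12, edgeR adjusted p = 0.00390). It was lower in KO before IL-4 and higher after it. No MHC class II gene of 10 tested was called by edgeR, where 3 had an unadjusted p below 0.05, while DESeq2, the fit without KO replicate 1 and length offsets each called 1 as more negative. Of 5 tested genes of the IGF2BP list, Igf2bp2, Hmga2 (-0.42, SE 0.08, edgeR adjusted p = 0.0111) and Hmga1 (-0.23, SE 0.06, edgeR adjusted p = 0.0421) were more negative and none more positive, none of the 5 having an unadjusted edgeR p below 0.05 in that direction or a DESeq2 call. The median of these 5 was -0.23, and 0.04 without KO replicate 1, where 2 were called, while length offsets called 3 and the fits without KO replicate 3 and WT replicate 2 called 1 and 0. Hmga1 was lost under 8 of 16 alternatives and Hmga2 under 5, and counts of Hmga1 were fractional in all 12 libraries.

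**Figure D5:**
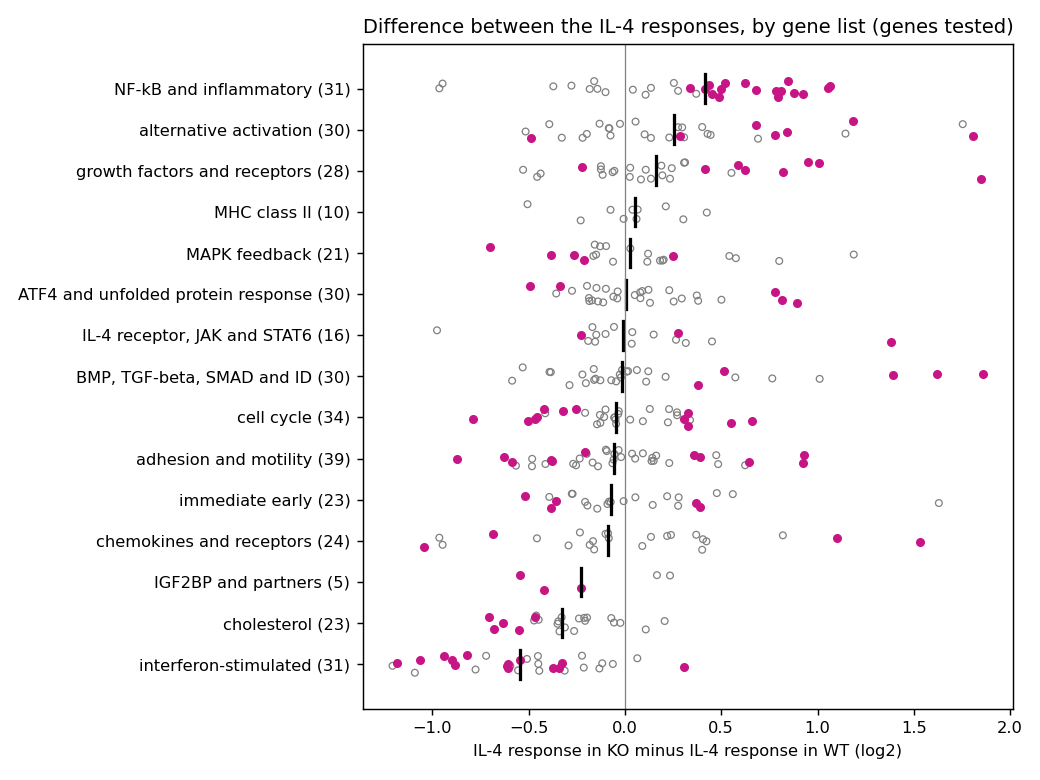
Difference between the IL-4 responses (KO minus WT, log2) of every tested gene of 15 lists, with filled points for called genes, open points for the others, black bars for list medians, and the number tested in brackets. The NF-kB list is centred at 0.41 with 17 called genes right of 0, and the interferon list at -0.54 with 13 called genes left of 0.

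Beyond these lists, the largest differences in each class came from genes of varied function. Plxna4, a semaphorin receptor, was at 36.8, 20.2 and 13.8 CPM in WT M0, 18.3, 15.3 and 12.1 in WT M2, 39.2, 34.8 and 30.2 in KO M0 and 7.19, 9.73 and 6.92 in KO M2. KO lay below WT in M2 without overlap, and WT M0 varied widely (difference -1.54, SE 0.21, edgeR adjusted p = 0.00442), and without the mouse block the adjusted p was 0.0726. Lama3, a laminin chain, and St18, a zinc finger transcription factor, were also repressed more in KO (-1.22, SE 0.24, edgeR adjusted p = 0.0151, and -1.11, SE 0.16, edgeR adjusted p = 0.00479). Rab15, a GTPase of endosomal transport, and Cd83, a surface protein of activated antigen-presenting cells, were induced more (1.21, SE 0.23, edgeR adjusted p = 0.0136, and 1.20, SE 0.20, edgeR adjusted p = 0.00896). Rab15 was lost without the block (edgeR adjusted p = 0.143), with limma, and without WT replicate 2, KO replicate 2 or KO replicate 3, Lama3 without the block, with limma, and without WT replicate 2 or KO replicate 3, and Cd83 without WT replicate 2 and with limma on log2(TPM + 1). St18 was lost with both limma fits.

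Among genes repressed less, Fas, the death receptor, was at 6.70, 10.1 and 12.5 CPM in WT M0, 4.82, 3.35 and 4.81 in WT M2, 5.91, 6.15 and 5.12 in KO M0 and 6.03, 6.05 and 6.97 in KO M2. It fell in each WT mouse, and KO libraries stayed between 5.12 and 6.97 CPM, with responses of -1.14 and 0.15 (difference 1.29, SE 0.26, edgeR adjusted p = 0.0185). Acod1, which makes itaconate, was at 89.2, 146 and 255 CPM in WT M0, 23.7, 27.6 and 25.1 in WT M2, 128, 204 and 157 in KO M0 and 43.5, 88.1 and 64.3 in KO M2. The genotypes overlapped in M0 and were apart in M2 (difference 1.22, SE 0.27, edgeR adjusted p = 0.0269). Fas was lost under 5 of 16 alternatives, Acod1 under 7 and Cxcl3 (1.10, SE 0.28, edgeR adjusted p = 0.0429) under 8, among them both limma fits for each and 3, 3 and 4 of the 6 fits without 1 mouse. Acod1 was also lost with DESeq2 and, like Cxcl3, without the block.

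Of genes induced less, Xylt1, a xylosyltransferase that starts glycosaminoglycan chains, was at 15.9, 11.1 and 8.84 CPM in WT M0, 35.4, 34.3 and 29.0 in WT M2, 24.6, 27.2 and 24.0 in KO M0 and 20.3, 38.8 and 34.0 in KO M2. KO started above WT, and KO replicate 1 stood apart from the other KO libraries in M2 (difference -1.20, SE 0.22, edgeR adjusted p = 0.0118). The call was lost without the mouse block (edgeR adjusted p = 0.0673), with limma and without WT replicate 2. The other leading genes of the class were a lincRNA that overlaps Nav1 on the same strand, Gm38399 (-1.26, SE 0.30, edgeR adjusted p = 0.0355), and the processed pseudogenes Gm10241 (-2.06, SE 0.42, edgeR adjusted p = 0.0190) and Gm20689 (-1.11, SE 0.23, edgeR adjusted p = 0.0194), whose counts were fractional in all 12 libraries. All 3 were lost without the block, with limma, and without WT replicate 2 or KO replicate 3. These 3 values are uncertain, as reads may be shared with other genes. Fitted differences above 3 in size occurred in 7 called genes, all with a mean below 2 CPM.

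A set of 104 of the 1003 genes was called under every alternative tried, and the examples below were chosen from it after their values were seen. It held 27 genes repressed more in KO, 24 induced less, 23 repressed less, 14 induced more, 11 opposite and down in KO and 5 opposite and up. Dtl, an adaptor of the ubiquitin ligase that degrades licensing factors in S phase, was at 50.0, 43.9 and 40.0 CPM in WT M0, 41.6, 40.0 and 38.2 in WT M2, 66.1, 61.2 and 64.7 in KO M0 and 31.0, 27.2 and 24.9 in KO M2. It was the highest in KO M0 and the lowest in KO M2 (difference -1.06, SE 0.09, edgeR adjusted p = 0.00072). Timeless, of the replication fork protection complex, had a difference of -0.94 (SE 0.10, edgeR adjusted p = 0.00172) with the same arrangement, from 50.2, 48.4 and 52.6 CPM in KO M0 to 26.2, 22.3 and 21.2 in KO M2, while WT went from 41.8, 37.8 and 39.0 to 33.9, 34.0 and 36.3.

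Genes of the cytoskeleton and immune regulation were also in this set. Hip1, an adaptor between clathrin and actin, was at 246, 199 and 178 CPM in WT M0, 525, 510 and 490 in WT M2, 326, 344 and 342 in KO M0 and 405, 465 and 436 in KO M2. KO started higher and ended lower, with responses of 1.30 and 0.37 (difference -0.93, SE 0.09, edgeR adjusted p = 0.00110). Vav3, an exchange factor for small GTPases of the cytoskeleton, was induced by 1.00 in WT and had a response of 0.06 in KO (difference -0.95, SE 0.11, edgeR adjusted p = 0.00335). Vsir, which encodes the inhibitory checkpoint ligand VISTA, was at 118, 107 and 110 CPM in WT M0 and 146, 135 and 143 in WT M2, against 185, 179 and 178 in KO M0 and 151, 139 and 135 in KO M2. The gap before IL-4 was 0.70 and after it 0.00, and IL-4 moved the gene up in WT and down in KO to the same end level (difference -0.70, SE 0.05, edgeR adjusted p = 0.00072).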

How the data were processed

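RNA sequencing (single-end, strand-marking library kit, poly(A) selection) of 12 BMM libraries was processed by the authors with Grape-nf on GRCm38, who deposited 1 gene table per library with expected counts and TPM. The deposited expected counts, estimates that need not be whole, were rounded and used for all main tests, and the deposited TPM only for alternatives. Tables of the authors' own DESeq2 results (fold changes, p-values) were not used.

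Low-count genes were dropped by filterByExpr at a minimum count of 10, which left 12846 of 38887. edgeR 4.0.16 in R 4.3.3 (TMM factors, quasi-likelihood F test, Benjamini-Hochberg over all genes, called below 0.05) was fitted with the 6 mice as a block, IL-4, and IL-4 in KO as the tested term, leaving 4 residual degrees of freedom. The standard error was the log2 change divided by the square root of F. KO against WT in M0 and in M2 came from a fit without the block, with 1 coefficient per group. The biological coefficient of variation was 5.2% with the block and 8.1% without.

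Equal library numbers in the labels of M0 and M2 were read as 1 mouse, since residuals of equal numbers correlated at 0.331, 0.103 and 0.364 in WT and 0.166, 0.16 and 0.209 in KO. Unequal numbers correlated at -0.324 to 0.066 in WT and -0.122 to -0.06 in KO. The margin was small for WT replicate 2, whose M0 library had 0.103 with its own number and 0.066 with WT replicate 1. Nothing says that libraries of a group came from separate cultures beyond the mouse. The block takes out level differences between mice. Blocked p-values therefore measure how far the IL-4 response varied between mice of a genotype, together with noise of the libraries. The p-values of KO against WT in M0 and in M2, from the fit without the block, measure the spread of levels between these mice. Counts limit precision through depth, which was at least 20011792 in every library. The script was tested on simulated counts.

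Genes named are the 4 largest differences of each class with a symbol and a mean of at least 5 CPM, called members of 15 gene lists, Igf2bp2, Lyz2, Retnla, Chil3 and Mrc1. Some genes that the rule names are not reported here. Uncalled list members, genes at the threshold and examples of genes called under every alternative were picked after their values were seen. The question, the lists and this rule were chosen with earlier results of these data known. Alternatives were no block, DESeq2 1.42.0, RLE factors, 2 other filters, limma 3.58.1 on log2(TPM + 1) and log2(TPM + 0.1), thinning to the smallest library, each mouse left out, and, after seeing the data, offsets for transcript length and GC.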

Additional observations from a re-analysis of the deposited data

Results flagged for a closer look

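The IL-4 response differed between the genotypes, by a test of the difference itself, in 1003 genes, and in the 24 genes that lead the 6 classes. The differences (log2, KO minus WT) were 1.86 for Id1, 1.81 for Ch25h, 1.21 for Rab15 and 1.20 for Cd83, which were induced more in KO. They were 1.38 for Socs3, 1.29 for Fas, 1.22 for Acod1 and 1.10 for Cxcl3, which were repressed less, and 0.95 for Gas6, 0.84 for Gm15427, 0.81 for Cebpb and 0.77 for Tmem37, which moved up in KO and down in WT.

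Among genes induced less in KO the differences were -2.06 for Gm10241, -1.26 for Gm38399, -1.20 for Xylt1 and -1.11 for Gm20689. They were -1.54 for Plxna4, -1.22 for Lama3, -1.18 for Ifit3 and -1.11 for St18, which were repressed more, and -1.18 for Ung, -1.05 for Prdm10, -0.96 for Cacna1d and -0.81 for Snx30, which moved down in KO and up in WT.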

How the results depend on the processing

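No named gene that was called changed direction under 16 alternatives, and 25 of the 122 genes that were not chosen for their stability kept their side of the threshold in all of them. The count of 1003 differing genes became 416 without the mouse block (34.4% of them more positive in KO), 248 with limma on log2(TPM + 1) and 264 on log2(TPM + 0.1), and ran from 215 to 1006 without 1 mouse. DESeq2 called 850, RLE factors 1019, no filter 1237, 1 CPM in 6 libraries 1085, thinning 938, and offsets for length, or for length and GC, 1476 and 1501. The IL-4 response of WT and of KO was within 1.5 times of its count under every alternative, but the share of genes called higher went from 50.1% to 40.2% in WT and from 50.5% to 39.1% in KO with limma on log2(TPM + 1). KO against WT, whose equal library numbers do not pair the genotypes (correlations of -0.068 to 0.04), ran from 298 to 1733 genes in M0 and from 19 to 1098 in M2 without 1 mouse (lowest without WT replicate 2 and KO replicate 2), and was 1322 and 413 with the number as a block. The causes were not tested. With 3 against 3 mice, an exact permutation test of 1 gene cannot go below 0.1. The calls come from model-based tests that share their estimate of spread across genes, and calls without such sharing were not tested.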
